A study of Mus musculus with 3 samples.

Results

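The expression of 4 genes that encode small secreted WAP-domain proteins, *Wfdc2*, *Wfdc18*, *Wfdc12* and *Slpi*, was followed through the cell classes of the adult mouse lacrimal gland (LG). The members were taken by name, as 4 of the 32285 gene rows of the count matrices. The data were 3 droplet-based single-cell libraries (10x Genomics) of LGs from 2 months old C57BL/6J mice without genetic change or treatment, namely 1 female library (Female replicate 1) and 2 male libraries (Male replicate 1 and Male replicate 2). Each library was 1 cell suspension from the 6 glands of 3 pooled animals, so the spread over libraries is a spread over pools. The core facility and the day of preparation differed between the female and the male libraries and cannot be told apart from sex. Values of both sexes are given side by side without a test, because there was 1 female library.

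WAP domains, also called four-disulfide cores, are short folds held together by disulfide bonds between cysteines, and several proteins that carry them block serine proteases or act on bacteria at wet epithelial surfaces. *Slpi*, the secretory leukocyte protease inhibitor, blocks neutrophil elastase and cathepsin G and is known from mucosal secretions and neutrophils. *Wfdc2*, also known as HE4, is a secreted product of duct and airway epithelia, *Wfdc18* was described in mammary epithelium as an extracellular proteinase inhibitor, and *Wfdc12* encodes a short WAP protein with reported antibacterial activity. In the LG, acinar cells secrete most tear proteins, ducts carry and modify the fluid, myoepithelial cells (MECs) contract around the acini, and immune cells lie in the stroma.

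The stretch of coding sequence over the last 8 cysteine codons of each member is shown, because a WAP domain holds that many cysteines. The members share part of the spacing between these cysteines. The sequences were read from the GENCODE vM21 annotation of GRCm38, the assembly that mm10 denotes, 5′ to 3′ on the coding strand, and the capitals mark cysteine codons.
Wfdc2: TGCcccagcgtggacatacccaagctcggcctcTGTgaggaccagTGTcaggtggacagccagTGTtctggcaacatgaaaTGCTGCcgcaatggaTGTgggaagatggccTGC
Slpi: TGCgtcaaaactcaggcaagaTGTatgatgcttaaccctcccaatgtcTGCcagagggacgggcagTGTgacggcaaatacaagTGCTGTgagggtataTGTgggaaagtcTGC
Wfdc12: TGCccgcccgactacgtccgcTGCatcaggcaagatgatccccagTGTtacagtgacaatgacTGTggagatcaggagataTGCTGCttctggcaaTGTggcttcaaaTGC
Wfdc18: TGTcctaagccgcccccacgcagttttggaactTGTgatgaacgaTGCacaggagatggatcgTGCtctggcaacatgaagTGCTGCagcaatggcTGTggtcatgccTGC
In all 4 stretches 5 codons lay between the third and the fourth cysteine and 5 between the fourth and the fifth, the fifth and the sixth were adjacent, and 3 codons followed. The members differed in the gap between the first and the second cysteine, with 10 codons in *Wfdc2* and *Wfdc18* and 6 in *Wfdc12* and *Slpi*. Between the second and the third lay 3 codons in *Wfdc2* and *Wfdc18*, 7 in *Wfdc12* and 8 in *Slpi*. The last gap held 4 codons in *Wfdc2* and 3 in the other members. The *Wfdc2* gene lies on the plus strand at chr2:164562413-164568510 and has a coding sequence of 525 bases in 4 coding exons with 18 cysteine codons. The *Slpi* gene lies on the minus strand of the same chromosome at chr2:164354070-164389095. Its transcript read here spans chr2:164354070-164356507, with 396 coding bases and 17 cysteine codons. *Wfdc12*, also on the minus strand of that chromosome at chr2:164189231-164190608, has 258 coding bases and 8 cysteine codons, and the antisense gene *A730032A03Rik* overlaps it. *Wfdc18* lies apart from the others on the plus strand at chr11:83709015-83711348, with 225 coding bases and 8 cysteine codons. Directly adjacent cysteine codons occurred 2 times in *Wfdc2* and in *Slpi* and 1 time in *Wfdc18* and in *Wfdc12*.

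Cell classes were rebuilt from 7652, 5295 and 5397 kept cells in Female replicate 1, Male replicate 1 and Male replicate 2, with 55390678, 37641576 and 41269825 UMIs (unique molecular identifiers, each counting 1 captured RNA molecule). A class is called "-like" because its name comes from a marker list. The 4 members were left out of both the clustering and the markers. In all, 322 genes were left out of the clustering. They included tear-product, mitochondrial, ribosomal and sex-linked genes and the genes of the lists below, unless they were markers. The clustering used variable genes among the rest. Classes were thus formed from the same cells that were tested, and the p-values below do not account for it. In each library the acinar-like class held 647, 1360 and 1858 cells, the Car6-high-like acinar class 79, 108 and 87, the Tfrc-high-like acinar class 85, 159 and 172, the duct-like class 1078, 326 and 272, the Ltf+-like class 98, 413 and 405, and the MEC-like class 332, 325 and 274. All 6 duct markers, all 5 Ltf+ markers and all 6 MEC markers were detected in the class they name, with summed levels of at least 4074, 6727 and 9087 CPM. CPM here are the UMIs of a gene scaled to 1000000 UMIs of the class in that library, and since UMIs were read from the 3′ end they are not divided by gene length. Between 8 and 13 kept barcodes were shared by any pair of libraries.

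Free RNA, released when cells break during digestion, gives UMIs in cells that do not make a gene. In uncalled barcodes with 10 to 100 UMIs, *Wfdc12* stood at 132, 2689 and 2227 CPM and *Wfdc18* at 662, 2110 and 1845 CPM in Female replicate 1, Male replicate 1 and Male replicate 2, while *Wfdc2* gave 1, 2 and 0 UMIs and *Slpi* 0, 3 and 3. Tear-product genes made up 68.8%, 79.3% and 79.5% of the UMIs there. From the tear-product UMIs of non-epithelial cells, free RNA was put at 1320, 1046 and 1034 UMIs per cell. Beside each level, the observed UMIs are therefore given over those that this constant amount of free RNA would carry. For classes that make tear products themselves the UMIs are also given over the larger amount obtained if all their tear-product UMIs were free.

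*Wfdc2* was a gene of the duct-like class, with a lower level in Ltf+-like cells and few UMIs elsewhere. Its level in duct-like cells was 915 CPM in Female replicate 1, 554 in Male replicate 1 and 679 in Male replicate 2 (716 ± 183, mean ± SD, n = 3 libraries). In Ltf+-like cells it was 298, 52.7 and 96.2 CPM (149 ± 131). The lowest duct-like library lay above the highest Ltf+-like library, and the female library was the highest in both classes.

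The MEC-like class held 9.39, 3.34 and 4.73 CPM of *Wfdc2*, and the acinar-like class 1.78, 0.135 and 0.210 CPM. Tfrc-high-like cells held 62.6 and 3.69 CPM in Female replicate 1 and Male replicate 1 (14 and 1 UMIs) and no UMI in Male replicate 2, so the female value lay above the Ltf+-like level of Male replicate 1. Car6-high-like cells held 10.0 CPM in the female library (13 UMIs) and no UMI in the male libraries. In fibroblast-, endothelial-, mural-, lymphoid- and myeloid-like cells no library exceeded 26.4 CPM, which was 2 UMIs in mural-like cells. These low levels overlapped between classes, so that no order could be read among them. Of all *Wfdc2* UMIs, the duct-like class held 85.1%, 76.4% and 58.1% in Female replicate 1, Male replicate 1 and Male replicate 2, and the Ltf+-like class 12.2%, 20.2% and 39.0%.

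At an equal depth of 1000 UMIs per cell, 56.7%, 39.0% and 46.0% of duct-like cells had a *Wfdc2* UMI, against 34.7%, 4.68% and 11.1% of Ltf+-like cells. Without thinning the duct-like shares were 91.6%, 50.6% and 54.8%. In fibroblast-like cells, which should lack the gene, the thinned share was 0 in all 3 libraries. The duct-like *Wfdc2* UMIs were 183 and 108 times those expected from free RNA in Female replicate 1 and Male replicate 1, and free RNA of Male replicate 2 held no *Wfdc2* UMI.

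**Figure D1:**
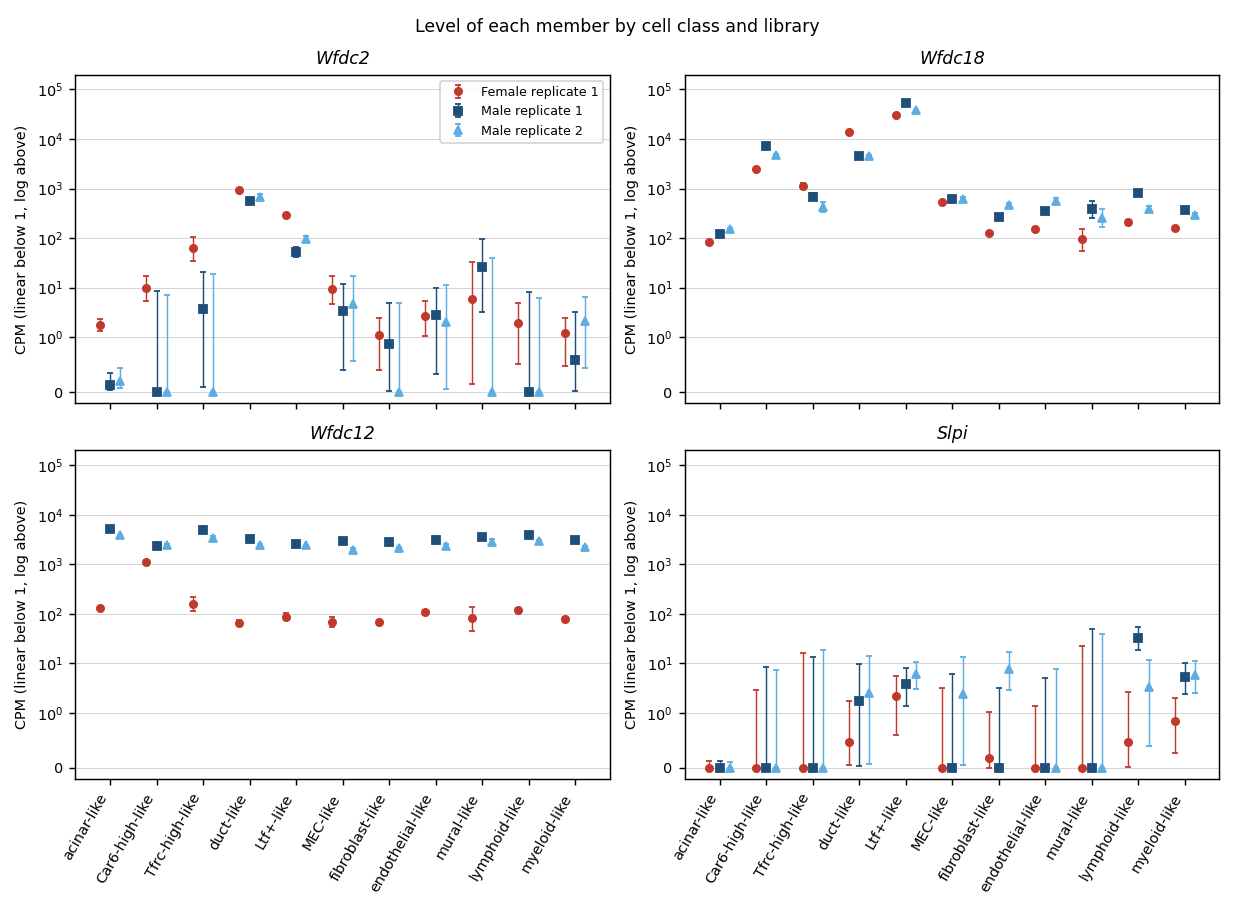
Level of the 4 genes in CPM (vertical axes, linear below 1 and logarithmic above) for 11 cell classes, with 1 point per library and bars for the 95% Poisson interval of the UMI sum. *Wfdc2* peaked in duct-like cells (554 to 915 CPM), *Wfdc18* in Ltf+-like cells (30731 to 53363 CPM), *Wfdc12* lay between 1980 and 5145 CPM in every class of the male libraries, and *Slpi* stood at 32.6 CPM or less.

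Against all other epithelial cells, *Wfdc2* was higher in duct-like cells, with a log2 fold change of 4.44 ± 0.35 (SE) and an adjusted p of 6.05e-08 in edgeR's quasi-likelihood test on UMIs summed per library. In that comparison 36.9% of the 10850 genes tested were called at an adjusted p under 0.05 (16.6% higher and 20.4% lower). The CPM was higher in duct-like cells in 3 of 3 libraries (716 ± 183 against 8.94 ± 8.69). With robust estimation of the spread, an option added after the data were seen, the adjusted p was 0.0622 at the same fold change.

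In Ltf+-like cells *Wfdc2* was higher than in the other epithelial cells by 1.03 ± 0.29 on the log2 scale, with an adjusted p of 0.0433 in edgeR, in a comparison that called 14.6% of 10776 genes (6.71% higher and 7.87% lower). The 6 duct markers summed to 118 to 572 CPM in this class over the 3 libraries, above their 1.08 to 5.64 CPM in acinar-like cells, and their part in the result was not tested. The call rested on Male replicate 2, since without that library the log2 fold change was 0.59 and the adjusted p 0.453.

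Acinar-like cells of all 3 classes together had less *Wfdc2* than the other epithelial cells, with a log2 fold change of -6.20 ± 0.52 and an adjusted p of 0.000126 (edgeR), where 50.8% of 11489 genes were called (23.7% higher and 27.1% lower). MEC-like cells also had less, with -5.24 ± 0.41 and an adjusted p of 5.63e-05 (edgeR), where 30.8% of 11164 genes were called (14.3% higher and 16.5% lower). In Tfrc-high-like cells *Wfdc2* was called higher than in the other acinar-like cells (2.11 ± 0.58, adjusted p of 0.00138 in edgeR, with 34.8% of 8506 genes called). That call rested on 15 UMIs, of which 14 were in Female replicate 1. The 6 duct markers summed to between 5.08 and 286 CPM in the Tfrc-high-like class, and their part in the result was not tested.

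*Wfdc18* was highest in Ltf+-like cells, where it was among the most abundant transcripts of the whole class. The Ltf+-like level was 30731 CPM in Female replicate 1, 53363 in Male replicate 1 and 38146 in Male replicate 2 (40746 ± 11538, n = 3), and the gene ranked 7 among 32285. Duct-like cells followed with 13610, 4518 and 4509 CPM (7546 ± 5252). Car6-high-like acinar cells came next with 2509, 7327 and 4832 CPM (4889 ± 2409).

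Ltf+-like cells were above both classes in every library. Duct-like and Car6-high-like levels overlapped, with duct-like cells higher in the female library and Car6-high-like cells higher in both male libraries. The Tfrc-high-like class stood at 1132, 690 and 422 CPM and the MEC-like class at 530, 606 and 603 CPM, which also overlapped. Acinar-like cells outside the Car6-high and Tfrc-high classes had the lowest mean share of all UMIs, with 85.3, 119 and 155 CPM. With tear products and mitochondrial genes left out of the total, their mean was 772 CPM. It was then 561 CPM in fibroblast-, 751 in endothelial-, 575 in mural-, 512 in myeloid- and 1225 in lymphoid-like cells. These means overlapped within their spread, so no order was read from them.

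*Wfdc18* was present in free RNA. Over the constant amount of free RNA, the UMIs in Ltf+-like cells were 661, 93.3 and 90.8 times the expected number, and those in duct-like cells 60.6, 3.59 and 3.38 times. Car6-high-like cells had 47.1, 13.5 and 14.9 times the expected number, or 3.78, 3.86 and 2.72 times if all their tear-product UMIs were free. In fibroblast-, endothelial-, mural-, lymphoid- and myeloid-like cells the ratio was between 0.196 and 0.698, so the *Wfdc18* UMIs of stromal and immune cells did not exceed free RNA. MEC-like cells exceeded it in the female library only, with ratios of 2.14, 0.506 and 0.488. Acinar-like cells outside the Car6-high and Tfrc-high classes had between 1.17 and 4.41 times the constant amount. If all their tear-product UMIs were free, the ratio was between 0.0533 and 0.114.

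At equal depth, 86.7%, 99.8% and 99.2% of Ltf+-like cells had a *Wfdc18* UMI, as had 86.8%, 73.3% and 74.9% of duct-like cells and 44.3%, 69.4% and 72.1% of Car6-high-like cells. The share in fibroblast-like cells, given here as background, was 9.95%, 22.7% and 21.4%. In Female replicate 1 the duct-like and Ltf+-like classes held nearly equal parts of all *Wfdc18* UMIs (46.4% and 46.0%), while in the male libraries the Ltf+-like class held 87.9% and 86.2%.

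**Figure D2:**
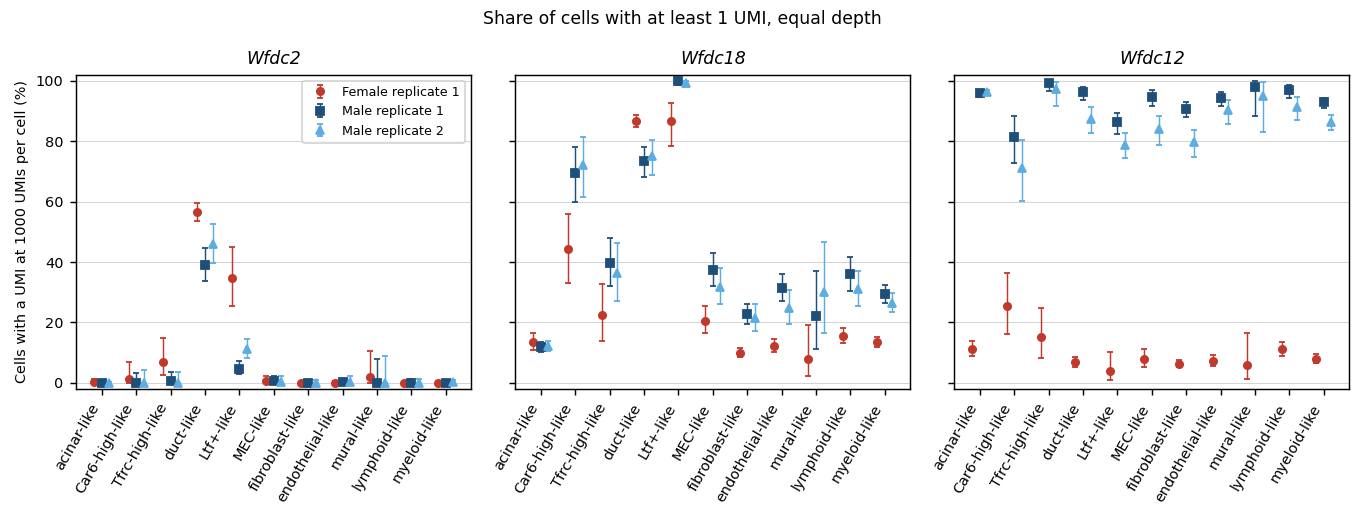
Percentage of cells with at least 1 UMI of *Wfdc2*, *Wfdc18* or *Wfdc12* (vertical axis) after each cell was thinned to 1000 UMIs, for 11 cell classes, with 1 point per library and exact binomial 95% intervals. *Wfdc2* was found in 39.0% to 56.7% of duct-like cells, *Wfdc18* in 86.7% to 99.8% of Ltf+-like cells, and *Wfdc12* in most cells of every class in the male libraries.

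**Figure D3:**
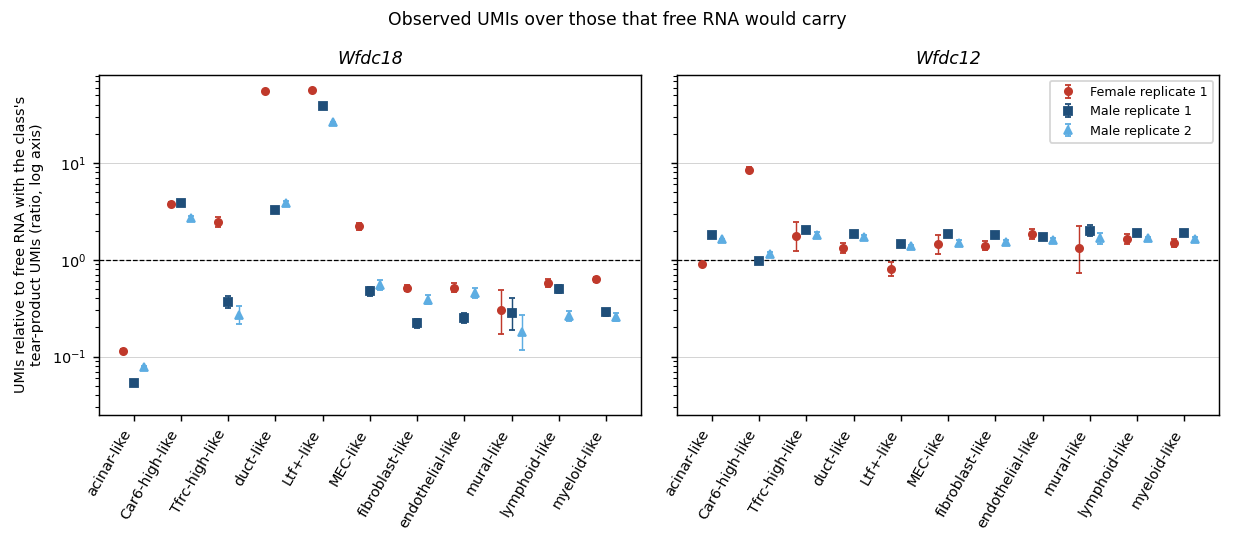
Observed UMIs of *Wfdc18* and *Wfdc12* over those that free RNA would carry if all tear-product UMIs of the class were free (ratio, logarithmic axis, dashed line at 1), for 11 cell classes, with 1 point per library and 95% Poisson intervals. *Wfdc18* lay far above the line in Ltf+-like cells (26.4 to 56.4), whereas *Wfdc12* stayed between 0.807 and 2.05 everywhere but in the Car6-high-like cells of the female library (8.55).

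*Wfdc18* was higher in Ltf+-like cells than in the other epithelial cells, with a log2 fold change of 4.79 ± 0.49 and an adjusted p of 0.000471 in edgeR (40746 ± 11538 against 785 ± 847 CPM, higher in 3 of 3 libraries). It was lower in acinar-like cells (-4.32 ± 0.38, adjusted p of 0.000154) and in MEC-like cells (-4.54 ± 0.19, adjusted p of 4.87e-06), both against the other epithelial cells in edgeR. For duct-like cells no call was made, at -0.74 ± 0.28 with an adjusted p of 0.0507 (edgeR). That sign depended on the scaling, since without TMM, edgeR's correction for composition, the log2 fold change was 1.51, and the CPM was higher in duct-like cells in 3 of 3 libraries (7546 ± 5252 against 2290 ± 503). Without Female replicate 1 it was called lower at -1.20. Ltf+-like cells held 56592 of the 63212, 85053 of the 92330 and 70200 of the 78177 *Wfdc18* UMIs of these other epithelial cells. The comparison was thus mainly one with Ltf+-like cells. Duct-like levels of 4509 to 13610 CPM lay above those of MEC-like cells (530 to 606 CPM) and acinar-like cells (85.3 to 155 CPM).

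Among acinar-like cells *Wfdc18* set the Car6-high-like class apart. It was higher there than in the other acinar-like cells, with a log2 fold change of 4.41 ± 0.28 and an adjusted p of 1.34e-22 in edgeR, in a comparison that called 5.62% of 8458 genes. The levels were 2509, 7327 and 4832 CPM against 93.2, 124 and 156 CPM, with no overlap. The female value rested on few cells, since the top 5 of 79 cells held 69.6% of the 3252 UMIs, against 44.5% and 26.8% of 3213 and 2473 UMIs in the male libraries. The 5 Ltf+ markers summed to 18.5 to 173 CPM in Car6-high-like cells and to 3.35 to 18.9 CPM in acinar-like cells, and their part in the result was not tested. In Tfrc-high-like cells *Wfdc18* was not called (-0.52 ± 0.29, adjusted p of 0.165 in edgeR), and without TMM its log2 fold change was 1.73. Without Male replicate 1 it was called lower at -0.84.

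*Wfdc12* was found in every class, and its levels differed more between libraries than between classes. In acinar-like cells it stood at 134 CPM in Female replicate 1, 5145 in Male replicate 1 and 3863 in Male replicate 2. Duct-like cells had 65.6, 3221 and 2435 CPM, Ltf+-like cells 88.0, 2520 and 2410 CPM, and MEC-like cells 69.1, 2975 and 1980 CPM. The non-epithelial classes lay between 67.3 and 118 CPM in the female library and between 2178 and 3976 CPM in the male libraries.

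In each class, both male libraries were thus above the female library, a difference that cannot be told apart from core and day. Over the constant amount of free RNA the *Wfdc12* UMIs of acinar-like cells were 34.6, 39.7 and 30.1 times the expected number, and the class held 52.6%, 85.7% and 86.4% of all *Wfdc12* UMIs. If all tear-product UMIs of the class were free, the ratio was 0.895, 1.81 and 1.62. Ltf+-like cells had 9.46, 3.46 and 4.75 times the constant amount, or 0.807, 1.44 and 1.38 times the larger one, and Tfrc-high-like cells 2.42, 2.95 and 1.70 times the constant amount. In duct-like cells that ratio was 1.46, 2.01 and 1.51, and in MEC-like cells 1.40, 1.95 and 1.33. In the non-epithelial classes it ran from 1.24 to 2.18, so the duct- and MEC-like ratios lay in the range of cells that should not make a tear product. The class means overlapped within their spread (3047 ± 2603 CPM in acinar-like, 1907 ± 1643 in duct-like cells), and no order of classes was read from them.

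At equal depth 11.3%, 95.8% and 96.1% of acinar-like cells had a *Wfdc12* UMI, but so had 6.33%, 90.6% and 79.5% of fibroblast-like cells. The median acinar-like cell held 1 *Wfdc12* UMI in Female replicate 1, 47 in Male replicate 1 and 38 in Male replicate 2. These medians were taken at unequal depths.

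The tests placed *Wfdc12* on the acinar side. It was higher in acinar-like cells than in the other epithelial cells (log2 fold change 3.43 ± 0.34, adjusted p of 0.000235 in edgeR, CPM higher in 3 of 3 libraries). It was lower in duct-like cells (-3.11 ± 0.26, adjusted p of 1.16e-07), in Ltf+-like cells (-2.30 ± 0.31, adjusted p of 0.00175) and in MEC-like cells (-3.24 ± 0.18, adjusted p of 1.43e-05), each against the other epithelial cells in edgeR. Without TMM these 4 values were 0.96, -0.85, -0.84 and -0.95, with their signs kept. In Tfrc-high-like cells *Wfdc12* was called lower than in the other acinar-like cells (-2.34 ± 0.48, adjusted p of 1.10e-05 in edgeR), yet the levels of 161, 4863 and 3426 CPM against 176, 5104 and 3842 CPM lay close together, and without TMM the value was -0.11 with an adjusted p of 0.674. The call was also lost without Male replicate 2 (-2.41).

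In Car6-high-like cells *Wfdc12* went in different directions between libraries. The level was 1135 CPM against 134 in the other acinar-like cells of Female replicate 1, 2356 against 5142 in Male replicate 1 and 2466 against 3861 in Male replicate 2. No call was made over the 3 libraries (-0.53 ± 0.39, adjusted p of 0.618 in edgeR). The value was -1.70 and called without Female replicate 1, 0.48 without Male replicate 1 and 0.12 without Male replicate 2. The female value rested on few cells, since the top 5 of the 79 Car6-high-like cells held 67.0% of the 1471 UMIs.

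**Figure D4:**
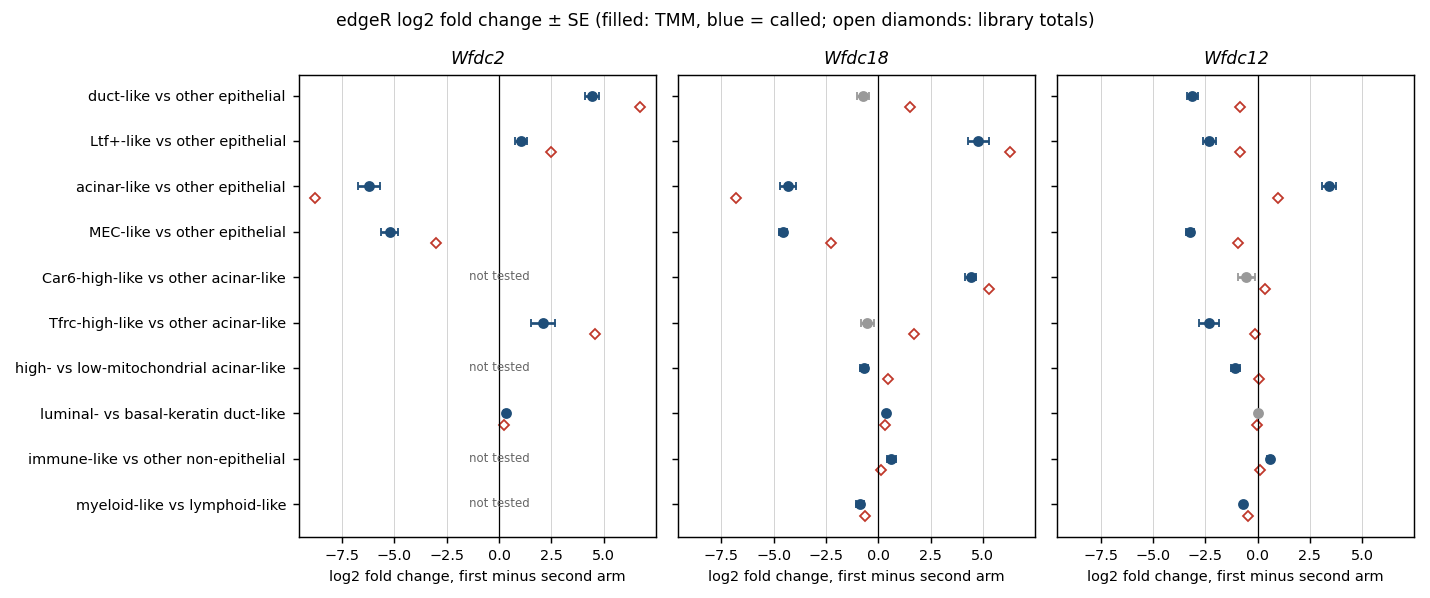
Log2 fold change with SE bars (horizontal axes) of *Wfdc2*, *Wfdc18* and *Wfdc12* in 10 comparisons, from edgeR with TMM (circles, blue where called, grey where not) and from library totals without TMM (open diamonds). *Wfdc2* was highest in duct-like cells (4.44), *Wfdc18* in Ltf+-like cells (4.79) and *Wfdc12* in acinar-like cells (3.43), and every pair of values in the 4 comparisons among epithelial classes had one sign except that of *Wfdc18* in duct-like cells.

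The large distance between both scalings in the comparisons among epithelial cells was shared by all genes. Tear products made up 77.6%, 83.9% and 84.9% of the UMIs of acinar-like cells and 25.8%, 51.3% and 50.8% of those of duct-like cells. Without TMM the median log2 fold change of all genes tested was 2.30 for duct-like, 1.36 for Ltf+-like, -2.55 for acinar-like and 2.16 for MEC-like cells, against -0.03, -0.06, -0.04 and -0.09 with TMM. The calls in duct-like cells split into 1799 higher and 2210 lower with TMM and 9526 higher and 228 lower without it. In Ltf+-like cells the split was 723 and 848 with TMM and 6266 and 141 without, in acinar-like cells 2719 and 3116 against 106 and 10741, and in MEC-like cells 1597 and 1844 against 8822 and 220. Fold changes above are therefore relative to the median gene, and levels in CPM are shares of all UMIs.

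*Slpi* was close to the limit of detection. It gave 13, 32 and 29 UMIs in 11, 15 and 17 cells of Female replicate 1, Male replicate 1 and Male replicate 2. No *Slpi* UMI was found in 4555 acinar-like cells of all 3 classes with 95072433 UMIs, which allows a level of up to 0.0316 CPM (3 UMIs over the group, counting error only). Duct-, Ltf+- and MEC-like cells together held 26 UMIs or 2.06 CPM, 65.3-fold above that limit, leaving their own counting error aside. Tear products, at 77.0%, 83.6% and 84.7% of acinar-like UMIs against 33.5%, 50.7% and 58.2%, enlarge this fold. The difference was called in edgeR (adjusted p of 0.00447). *Slpi* passed edgeR's filter on low counts only through the cells outside the acinar-like classes. This call therefore adds no support beyond the counts. The fit gave no value with tear-product genes left out, free RNA subtracted, mitochondrial shares under 5%, more doublets removed or Male replicate 2 left out.

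Of the 26 *Slpi* UMIs 21 lay in Ltf+-like cells, at 2.17, 3.76 and 5.98 CPM, against 0.0482 ± 0.0142 CPM in all other epithelial cells. The difference was called with a log2 fold change of 4.68 ± 0.62 and an adjusted p of 0.00169 in edgeR. *Slpi* passed edgeR's filter on low counts only through its level in Ltf+-like cells. This call therefore adds no support beyond the counts. No value came from the fits with mitochondrial shares under 5%, more doublets removed, free RNA subtracted or Male replicate 2 left out. In the male libraries the Ltf+-like UMIs were 1.07 and 1.51 times the number that free RNA would carry, which itself was estimated from 3 *Slpi* UMIs in each. The same estimate put 18.4 and 33.3 *Slpi* UMIs into the male acinar-like cells outside the Car6-high and Tfrc-high classes, where none was found. In Female replicate 1 free RNA held no *Slpi* UMI and Ltf+-like cells held 4. In duct- and MEC-like cells 4 and 1 UMIs were found, too few for a test.

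In immune cells, the myeloid-like class held 5, 9 and 8 *Slpi* UMIs and the lymphoid-like class 1, 15 and 2. Among myeloid-like cells, those with monocyte markers held 14.9, 72.3 and 18.4 CPM (1, 8 and 2 UMIs) and those with macrophage markers 0.727, 0.786 and 5.64 CPM (4, 1 and 6 UMIs). The monocyte-like UMIs were 9.23 and 1.38 times those expected from the constant amount of free RNA in Male replicate 1 and Male replicate 2. All 15 UMIs of the lymphoid-like class in Male replicate 1 lay in 1 cell, which also held 172 UMIs of *Jchain* and 218 of *Igha*, genes of IgA-secreting plasma cells. A fibroblast-like cell of Male replicate 2 with 6 *Slpi* UMIs held 89 of *Jchain* and 147 of *Igha*, and a lymphoid-like cell of that library with 2 *Slpi* UMIs held 148 and 378. Among the 13 cells with 2 or more *Slpi* UMIs, 3 had *Jchain* UMIs, 3 were monocyte-like, 3 macrophage-like and 4 Ltf+-like, and in all 13 the neutrophil genes *S100a8*, *S100a9*, *Retnlg* and *Csf3r* stood at 0. Neutrophils formed no class of their own here. The cells were singled out after their values were seen.

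Within the duct-like class, cells were split at the library median of the share of luminal keratins (*Krt7*, *Krt8*, *Krt18*, *Krt19*) among 7 keratins. Luminal cells are those that line the lumen. Cells with fewer than 5 UMIs of the 7 keratins were left out, which were 23, 126 and 105 duct-like cells. The cut lay at a luminal share of 16.7%, 9.55% and 11.1%. A luminal-keratin cell could thus still hold mostly the other keratins (*Krt5*, *Krt14*, *Krt17*). *Wfdc18* was higher in the luminal-keratin cells (15117, 5485 and 4837 CPM against 12353, 4011 and 4130), with a log2 fold change of 0.39 ± 0.07 and an adjusted p of 5.05e-07 in edgeR, in a comparison that called 2.21% of 1583 genes (0.632% higher and 1.58% lower). *Wfdc2* was also higher there (993, 646 and 704 CPM against 851, 524 and 602), with 0.31 ± 0.09 and an adjusted p of 0.0184. Both genes were higher in the luminal-keratin cells in 3 of 3 libraries.

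*Wfdc12* was not called in that split (0.042 ± 0.085, adjusted p of 0.989 in edgeR). Leaving out any 1 library ended the call of *Wfdc2*, with log2 fold changes of 0.31, 0.29 and 0.29 without Female replicate 1, Male replicate 1 and Male replicate 2. The cut separated a continuous range, and 401, 55 and 26 cells lay within 5 percentage points of it. Of the dissociation list, 16 immediate-early and heat-shock genes that enzyme digestion can induce, 7 were lower in luminal-keratin cells and none was higher, and their part in the result was not tested.

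The 2 duct-like clusters found in the epithelial cells differed in the same members, as a description. In the larger cluster *Wfdc2* stood at 1028, 761 and 853 CPM and in the other at 719, 365 and 452 CPM. *Wfdc18* stood at 17440, 7418 and 5911 CPM and at 6923, 1865 and 2670 CPM. With tear products and mitochondrial genes left out of the total, the dissociation genes summed to 22049, 21001 and 22542 CPM in the first cluster and to 65818, 47529 and 49727 CPM in the second. Both members were thus higher in every library where the dissociation genes were lower.

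Single duct-like cells often held both genes. At equal depth *Wfdc18* was found in 90.8%, 79.7% and 81.8% of duct-like cells with a *Wfdc2* UMI and in 81.5%, 69.3% and 69.0% of those without one.

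Acinar-like cells outside the Car6-high and Tfrc-high classes were split at their library's median mitochondrial share. *Wfdc18* and *Wfdc12* were called lower in the high-mitochondrial cells (-0.67 ± 0.18 with an adjusted p of 0.00242, and -1.06 ± 0.22 with an adjusted p of 0.000143, in edgeR), where 48.3% of 8312 genes were called. The levels did not show this. *Wfdc12* stood at 128, 5748 and 3778 CPM in high-mitochondrial cells and at 138, 5054 and 3896 CPM in the others, and *Wfdc18* at 73.5, 243 and 177 CPM against 93.7, 100.5 and 146 CPM. Without TMM, which moved the median gene to 1.22, the values were 0.45 and 0.061, so the direction of both depended on the scaling. Without Male replicate 2 neither was called (-0.64 and -1.07). The high-mitochondrial cells were also shallower, with medians of 14465, 4610 and 6510 UMIs against 27016, 36301 and 23494.

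In immune-like against other non-epithelial cells, *Wfdc18* (0.62 ± 0.22, adjusted p of 0.0261) and *Wfdc12* (0.60 ± 0.15, adjusted p of 0.00335) were called higher in edgeR, where 57.3% of 8999 genes were called. The CPM of *Wfdc18* was higher in immune-like cells in 2 of 3 libraries and lower in Male replicate 2 (322 against 483 CPM). In myeloid- against lymphoid-like cells, *Wfdc18* (-0.87 ± 0.20, adjusted p of 0.00651) and *Wfdc12* (-0.68 ± 0.08, adjusted p of 8.54e-05) were called lower in edgeR, where 33.6% of 6669 genes were called. Of the 378 lymphoid-like *Wfdc18* UMIs of Male replicate 1, 179 lay in 1 cell. In all non-epithelial classes the ratio to free RNA, given above, was below 1 for *Wfdc18* and above 1 for *Wfdc12*, and the part of free RNA in these differences was not tested. Without TMM the immune-like values were 0.13 and 0.12, with adjusted p of 0.587 and 0.270 in edgeR. Without Male replicate 1 the calls of *Wfdc18* were lost, at 0.43 in immune-like and -0.54 in myeloid-like cells.

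The list of other WAP-domain genes held 19, of which 12 had no UMI in the named classes and 4 had 1 to 20. *Wfdc17*, a WAP gene of activated macrophages, was the family's myeloid member, at 270, 314 and 271 CPM in myeloid-like cells (285 ± 25.4) and 2478 UMIs. It was higher in immune-like than in other non-epithelial cells (8.66 ± 0.26, adjusted p of 9.93e-12) and in myeloid- than in lymphoid-like cells (8.45 ± 0.46, adjusted p of 7.17e-07), both in edgeR. In epithelial cells it stayed below 5 CPM, and it was called higher in Ltf+-like cells (2.28 ± 0.64, adjusted p of 0.0442 in edgeR) on 16 UMIs.

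*Wfdc3* shared the Ltf+-like class with *Wfdc18*. It stood there at 15.2, 14.4 and 10.3 CPM (70 UMIs) and was higher than in the other epithelial cells (6.65 ± 0.51, adjusted p of 0.000102 in edgeR). It was called lower in duct-like and in acinar-like cells (adjusted p of 0.0331 and 0.00066 in edgeR), where few *Wfdc3* UMIs were found. *Wfdc1*, a gene of stromal cells, stood at 107, 79.1 and 21.6 CPM in mural-like cells and was lower in immune-like than in other non-epithelial cells (-6.83 ± 0.70, adjusted p of 1.09e-06 in edgeR).

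Of 17 genes listed as other protease inhibitors, whose activity was not examined here, 13 were tested in duct-like cells. Of these, 8 were higher and 1 was lower than in the other epithelial cells. The median log2 fold change of the 13 was 1.38, against -0.03 for all genes, of which 16.6% were higher and 20.4% lower. Without TMM 12 were higher and none was lower, where 9526 of all 10850 genes were higher and 228 lower. Genes of this list that were higher with TMM included *Serpina3n* (4.65 ± 0.51), a serpin that blocks granzyme B, and *Timp3* (4.25 ± 0.27), an inhibitor of matrix metalloproteases. *Cst3* (3.23 ± 0.22), the cysteine protease inhibitor cystatin C, and *Serpinb5* (3.16 ± 0.28), known as maspin, were also higher. In acinar-like cells 9 of 13 listed genes were lower and none was higher, with a median of -1.87 (27.1% of all genes lower). Without TMM all 13 were lower, as were 10741 of all 11489 genes. In Ltf+-like cells 2 of 11 were higher and 2 lower (6.71% and 7.87% of all genes). Without TMM 7 were higher and none was lower, where 6266 of all 10776 genes were higher and 141 lower. *Spint1*, which blocks matriptase, rose by 1.00 ± 0.22 there and *Timp3* fell by 2.30 ± 0.26 on the log2 scale. In MEC-like cells 3 of 13 were higher, led by *Timp2* (2.94 ± 0.25), and 1 was lower, *Spint2* (-1.34 ± 0.19), whose sign turned without TMM (0.95). Of all genes 14.3% were higher and 16.5% lower there. Without TMM 12 of the 13 listed genes were higher and none was lower, where 8822 of all 11164 genes were higher and 220 lower.

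Of 19 serine proteases few were detected among epithelial cells. In each of these 4 comparisons 5 were tested. *Prss23*, a secreted protease, was higher in MEC-like cells (5.31 ± 0.56) and lower in Ltf+-like cells (-3.40 ± 0.32) and acinar-like cells (-5.43 ± 0.36). *Prss8*, the membrane protease prostasin, was lower in duct-like cells (-1.89 ± 0.24) and higher in acinar-like cells (1.23 ± 0.26) with TMM, and both signs turned without it (0.41 and -1.25). *St14*, which encodes matriptase, was higher in Ltf+-like cells (0.83 ± 0.19). Elane and Ctsg, which encode the elastase and cathepsin G blocked by *Slpi*, had too few UMIs to enter any test.

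Of 16 mucosal defence genes, 7 were tested in duct-like cells, and 4 were higher and 2 lower (16.6% and 20.4% of all genes). Without TMM 6 were higher and 1 lower, where 9526 of all 10850 genes were higher and 228 lower. *Defb1*, a β-defensin, rose by 5.48 ± 0.43, *C3*, the central complement protein, by 2.99 ± 0.30 and *Rnase4*, a secreted ribonuclease, by 2.73 ± 0.25 on the log2 scale, and *Hp*, haptoglobin, fell by 3.54 ± 0.22. In Ltf+-like cells *Cxcl17*, a mucosal chemokine, was higher (5.35 ± 0.37), while *Hp* (-1.81 ± 0.24) and *Rnase4* (-2.11 ± 0.36) were lower. In acinar-like cells 5 of 6 were lower and 1 was higher with and without TMM. Of all genes 27.1% were lower and 23.7% higher with it, and 10741 of 11489 were lower and 106 higher without it. *Cxcl17* was among the lower defence genes (-5.29 ± 0.20). The genes named from these lists had adjusted p under 0.05 in edgeR. All 16 dissociation genes were higher in duct-like cells (median 2.14) and 14 were lower in acinar-like cells (median -2.10), and their part in these results was not tested.

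In Car6-high-like cells *Cst3* was higher than in the other acinar-like cells (3.19 ± 0.25), as was *Lcn2* (2.46 ± 0.39), which binds bacterial siderophores, and *Hp* was lower (-2.05 ± 0.21). *Tmprss2*, a membrane protease, was higher as well (2.92 ± 0.70). In myeloid- against lymphoid-like cells *Gzma* (-10.44 ± 0.47) and *Gzmb* (-7.68 ± 0.66), the granzymes of cytotoxic lymphocytes, were lower, as was *Serpinb9* (-3.44 ± 0.28), which blocks granzyme B. *Cst3* was higher in the myeloid-like cells (5.31 ± 0.14).

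Over 11 classes in 3 libraries (33 points, which share libraries and depth), the genes whose log2(CPM + 10) ran most like each member were listed as a description, among 7471 genes with at least 20 CPM in some class. For *Wfdc2* these included *Kcnj15*, *Tfcp2l1*, *Fxyd2* and *Nfe2l3*, with Pearson r from 0.932 to 0.961. For *Wfdc18* they were *Gsta3*, *4833423E24Rik*, *Ckmt1*, *Cyp2f2* and *Cldn7*, with r from 0.902 to 0.926. For *Wfdc12* they were *Scgb2b3*, *Esp16*, *Scgb1b3*, *Scgb2b12* and *Gm43974*, with r from 0.950 to 0.960, of which the first 4 are tear-product genes of the secretoglobin and exocrine-gland-secreted peptide families. *Wfdc12* was lower in the female library in every class. Its r thus mixes that difference between libraries with the pattern over classes, and the parts were not separated. For *Slpi*, which rested on few UMIs, they were *Iglc2*, *Mzb1*, *Cpa3*, *Jchain* and *Igha*, with r from 0.768 to 0.873.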

How the data were processed

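The deposited matrices hold raw UMI counts. Per the submitters' processing notes, the authors made them with Cell Ranger 6.1.2 on mm10, before their correction for free RNA and their removal of doublets, which were not repeated. Counts of a called barcode did not differ between the raw and the filtered matrix (0 differing entries). Called barcodes numbered 9737, 6422 and 6899, with a median of 3252, 1884 and 1788 UMIs in the cells kept. Intervals and floors cover counting error only. Cells needed at least 500 UMIs, at least 200 genes and a mitochondrial share under 15%, and the top-scoring doublets were removed at 0.8% per 1000 cells (646, 287 and 315 cells). Cells were normalised with SCTransform, integrated over libraries and clustered at resolution 1 in Seurat 5.3.0 (R 4.3.3). Clusters were named from marker lists, and the naming rules were completed after the clusters had been seen. Cells without a class (314, 145 and 169) entered no comparison, among them 10, 3 and 6 cells of a subcluster named as mast cells. Immune subclusters without a name kept the lymphoid- or myeloid-like class of their lineage and entered its comparisons.

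UMIs were summed per library and arm, and edgeR 4.0.16 was fitted to the sums (quasi-likelihood test after filterByExpr and TMM, with library as a block, because both arms of a library come from 1 suspension). P-values were adjusted over all genes tested by Benjamini-Hochberg. The SE of a log2 fold change was derived from the test, as its absolute value over the square root of the F statistic. No replicate of a group was a single animal, so the replicates were pools. The p-values concern differences between arms within libraries. They were set against a spread that edgeR moderates over all genes. Small p-values therefore do not rest on the spread of that gene over the pools alone. The test was tried on simulated data: in the comparison of duct-like cells, on 10850 genes, it recovered 49.5% of 105 changes of log2 size 1 and 100% of 95 changes of log2 size 2, with 3.29% of calls false. In the comparison of Car6-high-like cells, on 8458 genes, it recovered 50.5% of 107 and 100% of 93, with 6.96% false. The simulation used a fixed spread and the same mean profile in every library. It changed only genes with enough expected UMIs in every sum, up or down at random. These rates therefore do not cover genes with few UMIs, differences between libraries or a shift of most genes to one side. The members and gene lists were chosen with earlier results of these data known. The 4 members were always named. From each list and comparison up to 4 called genes with the largest absolute log2 fold change could be named, and of each member the 5 most alike genes, of which 1 is not reported here. Alternatives were DESeq2 1.42.0, other scalings and filters, other clusterings, free RNA subtracted, no library block and each library left out. Robust estimation of the spread was added after seeing the data.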

Additional observations from a re-analysis of the deposited data

Results flagged for a closer look

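The direction of *Wfdc12* in Car6-high-like against the other acinar-like cells differed between the female and the male libraries. The log2 ratio of the CPM was 3.07 in Female replicate 1, -1.13 in Male replicate 1 and -0.65 in Male replicate 2, so that the female library lay on one side and both male libraries on the other. This difference was not tested, because there was 1 female library, and sex cannot be told apart from core and day. The female sum of 1471 UMIs came from 79 cells, of which the top 5 held 67.0%. In the male libraries the top 5 cells held 41.3% and 56.7% of 1033 and 1262 UMIs. *Wfdc18* was higher in the Car6-high-like cells of all 3 libraries, with 69.6% of its 3252 female UMIs in the top 5 cells.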

How the results depend on the processing

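Over 28 results of single members and 15 alternatives (406 values), 341 kept their direction and their side of the threshold, 42 lost and 13 gained a call, and 10 reversed, and 8 results kept both under every alternative that gave a value. All values here are log2 fold changes, and causes were not tested except where the alternative is the scaling itself. Without TMM, *Wfdc18* turned to 1.51 in duct-like, 1.73 in Tfrc-high-like and 0.45 in high-mitochondrial acinar-like cells, and *Wfdc12* to 0.33 in Car6-high-like, 0.061 in high-mitochondrial and -0.026 in luminal-keratin cells. That scaling also ended the calls of *Wfdc12* in Tfrc-high-like cells (-0.11), of *Wfdc2* in luminal-keratin cells (0.22), and of *Wfdc18* and *Wfdc12* in immune-like cells (0.13 and 0.12). *Wfdc18* in duct-like cells was called lower with tear-product genes left out (-0.75), without a filter on low counts (-0.81), at clustering resolution 0.5 (-0.77) and without integration (-0.75). *Wfdc18* in Tfrc-high-like cells was called lower without that filter (-0.83), with mitochondrial shares under 5% (-1.71) and with free RNA subtracted (-4.64). *Wfdc12* in Car6-high-like cells was called lower with mitochondrial shares under 5% (-1.20), with more doublets removed (-1.78) and without integration (-1.38).

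Calls of *Wfdc2* were lost in Ltf+-like cells with mitochondrial shares under 5% (0.66), at resolution 0.5 (0.98) and with free RNA subtracted (1.01), in Tfrc-high-like cells with DESeq2 (1.95) and mitochondrial shares under 5% (0.26), and in luminal-keratin cells with DESeq2 (0.32) and free RNA subtracted (0.30). *Wfdc12* in Tfrc-high-like cells lost its call without integration (-2.18) and with free RNA subtracted (-3.33). *Wfdc18* in high-mitochondrial cells lost it with more doublets removed (-0.58) and reversed without integration (0.30), in luminal-keratin cells lost it with free RNA subtracted (0.48), and in immune-like cells with DESeq2 (0.61). With robust estimation of the spread, added after the data were seen, *Wfdc2* in duct-like cells (4.44) and *Wfdc18* in immune-like cells (0.62) were not called.

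Both arms of a library share 1 suspension, so the library was a block. Without this pairing *Wfdc12* lost its call in duct-like (-2.75), Ltf+-like (-2.63), acinar-like (3.06), MEC-like (-3.15), Tfrc-high-like (-2.09), high-mitochondrial (-1.11), immune-like (0.55) and myeloid-like cells (-0.68). So did *Wfdc2* in Ltf+-like (0.90), Tfrc-high-like (2.37) and luminal-keratin cells (0.32), and *Wfdc18* in high-mitochondrial (-0.63), luminal-keratin (0.39), immune-like (0.46) and myeloid-like cells (-1.09).

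With 1 library left out at a time, *Wfdc2* ranged from 0.59 to 1.31 in Ltf+-like and from 0.29 to 0.31 in luminal-keratin cells. *Wfdc18* ranged from -1.20 to -0.46 in duct-like, from -0.84 to -0.24 in Tfrc-high-like, from -0.97 to -0.51 in high-mitochondrial, from 0.43 to 1.06 in immune-like and from -1.15 to -0.54 in myeloid-like cells. *Wfdc12* ranged from -1.70 to 0.48 in Car6-high-like, from -2.74 to -2.12 in Tfrc-high-like, from -1.21 to -1.02 in high-mitochondrial and from -0.055 to 0.15 in luminal-keratin cells.

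The number of genes called ran over the alternatives from 2717 to 9754 for duct-like, 479 to 6407 for Ltf+-like, 4033 to 10847 for acinar-like, 2395 to 9042 for MEC-like, 80 to 1834 for Car6-high-like, 358 to 4953 for Tfrc-high-like, 1500 to 6279 for high-mitochondrial, 0 to 60 for luminal-keratin, 3444 to 7356 for immune-like and 1375 to 3034 for myeloid-like cells. The counts of 0 came from edgeR without the block and with free RNA subtracted, where 13 and 55 genes had an unadjusted p under 0.05, and DESeq2 with the block called 20. For 14 pairs of a result and an alternative no value could be had, mostly for *Slpi*, which has too few UMIs. Depth limits *Slpi* everywhere and *Wfdc2* outside duct-like and Ltf+-like cells, where a level below a few CPM could not be told from free RNA.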
